A study of Mus musculus with 212 samples.

Results

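Cry1 and Cry2 encode the cryptochromes, and both rows that map to these symbols were used, 2 genes of 47631 in the table. They were followed through 10 time courses of mouse skin fibroblasts, 5 from Bmal1-/- cells and 5 from WT cells, all of the C57BL/6 strain. All cultures of both genotypes were grown to confluency, received 100 nM dexamethasone for 15 min, a glucocorticoid pulse that sets cultured clocks to a common phase, and were then kept in HEPES-buffered medium. Each genotype has a PM and an AM course of 17 libraries, sampled every 3 h between CT0 and CT48, and a course of 24 libraries at 27, at 32 and at 37 °C, sampled every 2 h between CT0 and CT46. The meaning of AM and PM and the temperature of those cultures are not stated in the labels. Each time point has 1 library, so means, SDs and p-values measure how libraries within 1 course scatter, which is no measure of how separate cell preparations differ. Genotype and cell preparation cannot be told apart, and neither can temperature and culture.

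Both CT14 libraries of the 27 °C courses, in which values went against the genotype labels, were left out, which leaves 210 libraries. Cry1 stood at 13.01 FPKM (read density per transcript length and library size) in the one labelled Bmal1-/-, whose neighbours at CT12 and CT16 had 41.4 and 43.1, and at 36.6 in the one labelled WT, with neighbours at 10.2 and 11.2. Libraries held an estimated 9.93 to 32.2 M reads (median 23.4 M), least in WT AM at CT36. With the longest annotated transcript as length, the smallest estimate of reads behind a Cry1 value was 182, a counting error of 7.42%. Arntl, the gene symbol of Bmal1, was still read in Bmal1-/- cells, with course means of 5.80 to 8.01 FPKM against 4.97 to 7.36 in WT cells. The labels do not give the deleted part, so this does not check the genotype. All 9 fibroblast markers averaged above 1 FPKM in every course of both genotypes, but their levels differed with genotype. Col1a2, Lum, Pdgfra, Pdgfrb and Thy1 averaged lower in Bmal1-/- than in WT (Pdgfra 131.7 against 413.2 FPKM). Col1a1, Col3a1, Dcn and Vim averaged higher (Dcn 2878 against 1610). The part of this in the cryptochrome differences was not tested. Of the 5 keratinocyte markers, Krt5, Krt14 and Krt1 were near 0 in every course. Trp63 averaged 0.213 FPKM in Bmal1-/- and 1.56 in WT, and Krt10 averaged 0.711 in Bmal1-/- and 1.27 in WT.

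Cryptochromes are the repressor arm of the circadian clock. CLOCK and BMAL1 bind E-box sequences and switch on the Per and Cry genes, whose proteins join, enter the nucleus and inhibit CLOCK and BMAL1. Cry1 is known in mouse fibroblasts for a late peak. Elements in its first intron that the REV-ERB repressors (Nr1d1 and Nr1d2) bind contribute to it, beside elements in its promoter.

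Cry1 (ENSMUSG00000020038) lies on the minus strand of chromosome 10, from 85131700 to 85185064 in GRCm38, with 4 annotated transcripts. Cry2 (ENSMUSG00000068742) lies on the minus strand of chromosome 2, from 92403646 to 92434043, also with 4. The promoters are shown because E-boxes are the sites that BMAL1 would use. Both were found in the RefSeq table of GRCm38.p6 and are given from 250 to 21 bases before the annotated start, 5′ to 3′ on the gene's strand. Capitals mark the E-box CACGTG and the E-prime box CACGTT, which here reads AACGTG because it lies on the other strand.
Cry1, chr10:85185075-85185304, minus strand: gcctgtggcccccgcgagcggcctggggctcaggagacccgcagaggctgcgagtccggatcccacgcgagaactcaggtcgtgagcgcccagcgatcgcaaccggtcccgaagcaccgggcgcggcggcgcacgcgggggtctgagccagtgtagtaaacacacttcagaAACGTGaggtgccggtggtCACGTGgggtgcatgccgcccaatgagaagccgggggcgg
Cry2, chr2:92434090-92434319, minus strand: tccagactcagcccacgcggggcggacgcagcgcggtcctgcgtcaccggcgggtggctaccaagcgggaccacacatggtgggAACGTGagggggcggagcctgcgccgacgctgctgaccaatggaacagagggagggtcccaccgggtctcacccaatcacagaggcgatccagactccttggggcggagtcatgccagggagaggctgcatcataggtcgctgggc

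The Cry1 window held 1 E-box, whose first base is 60 bases before the start (position -60), and 1 E-prime box at -79. The Cry2 window held no E-box and 1 E-prime box at -166. Of 32851 promoter windows of the same length, 5.35% held CACGTG and 3.52% held CACGTT on either strand. Both windows were rich in G and C (70.0% in Cry1 and 67.8% in Cry2). CCAAT boxes stood at -41 in Cry1 and at -130 and -94 in Cry2, and GC boxes (GGGCGG) at -45 and -26 in Cry1 and at -231, -157 and -65 in Cry2. These motifs occur in 32.2% and 29.8% of windows. In neither window were the letters of the D-box (TTATGNAA, in 2.92% of windows), the ROR element half-site (AGGTCA, in 13.04%) or the cAMP response element (TGACGTCA, in 1.28%) found. The motif search is a description of these exact letters and not of factor binding, and looser forms of a motif were not searched.

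The comparison of genotypes asked how cryptochrome transcripts stand when Bmal1 is lacking. Cry1 rose in Bmal1-/- cells in all 5 courses, by 2.86- to 3.86-fold, and every Bmal1-/- library was above every WT library of the series, with a lowest value of 18.6 FPKM in Bmal1-/- and a highest value of 15.4 in WT. Within single courses 28.8 to 37.1% of all genes had a gap between the genotypes. The share with a gap over the whole series was not counted. Cry2 was also higher in Bmal1-/- at every time point of every course, by 1.81- to 2.43-fold, and passed the threshold in 3 of the 5. Folds are on the log2(FPKM + 1) scale, which understates changes of low values, and a difference was called at an adjusted p under 0.05 (limma, Benjamini-Hochberg) and at least 2-fold.

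In PM, Cry1 had a lowest value of 20.2, a median of 22.1 and a highest value of 23.5 FPKM in Bmal1-/-, against 3.50, 4.88 and 6.25 in WT. In AM it had 21.8, 24.6 and 26.02 FPKM in Bmal1-/-, against 4.31, 6.46 and 9.34 in WT. The Bmal1-/- courses lay in a narrow band far above WT, and the WT courses spread over about a doubling, as the plot of the PM and AM courses shows. The log2 difference was 1.95 ± 0.03 (SE) in PM (adjusted p = 4.23e-51) and 1.81 ± 0.03 in AM (adjusted p = 2.01e-49), with Bmal1-/- higher at 17 of 17 time points in each. Of 13307 genes tested, 15.6% were called in PM and 14.6% in AM, and Cry1 ranked in the top 3.76% and 4.42% by size of the difference. At matched time points the ratio of Bmal1-/- to WT ran from 2.44 at CT6 in AM to 6.49 at CT30 in PM.

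At 27 °C Cry1 had a lowest value of 31.0, a median of 39.99 and a highest value of 44.4 FPKM in Bmal1-/-, against 10.2, 13.5 and 15.4 in WT. At 32 °C it had 25.02, 28.7 and 32.4 FPKM in Bmal1-/-, against 7.14, 8.64 and 10.1 in WT. At 37 °C it had 18.6, 19.9 and 21.5 FPKM in Bmal1-/-, against 2.91, 4.59 and 6.14 in WT. The genotypes did not overlap at any temperature. The log2 differences were 1.52 at 27 °C (adjusted p = 1.67e-89), 1.63 at 32 °C (1.76e-94) and 1.92 at 37 °C (1.21e-102), each ± 0.03 (SE). Among 13031 genes tested, 13.5%, 14.5% and 13.9% were called in these courses, and Cry1 stood in the top 6.23%, 6.04% and 4.03% by size. A gap between all libraries of the genotypes was common, at 28.8 to 37.1% of genes in the 5 courses.

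Cry2 separated the genotypes by less. In PM it had a lowest value of 15.6, a median of 17.1 and a highest value of 19.3 FPKM in Bmal1-/-, against 6.88, 8.44 and 10.6 in WT. In AM it had 15.5, 16.9 and 19.04 FPKM in Bmal1-/-, against 5.17, 6.48 and 7.97 in WT. The log2 difference was 0.97 ± 0.03 (SE) in PM, just under the 2-fold limit (adjusted p = 1.65e-35), and 1.28 ± 0.03 in AM (adjusted p = 1.47e-41), where Cry2 rose. With a pseudocount of 0.1 FPKM the PM value was 1.04 and passed. At the temperatures, Cry2 averaged 12.8 ± 0.921 FPKM (SD, n = 23) at 27 °C in Bmal1-/-, against 6.65 ± 0.649 in WT. At 32 °C it averaged 14.4 ± 0.822 in Bmal1-/- and 6.38 ± 0.611 in WT, and at 37 °C 13.1 ± 0.519 in Bmal1-/- and 5.94 ± 0.465 in WT (n = 24 each). It rose in Bmal1-/- at 32 °C (log2 difference 1.07, adjusted p = 6.23e-74) and 37 °C (1.02, adjusted p = 8.67e-72), and the value at 27 °C was 0.85 (adjusted p = 4.76e-62), under 2-fold. No Cry2 ranges of the genotypes overlapped within a course, and over all courses the lowest Bmal1-/- library had 11.3 FPKM and the highest WT library 10.6. The share of genes with such a gap over all courses was not counted. The noncoding gene D930015M05Rik lies antisense over Cry2, from 92408892 to 92432308 on the plus strand, and its course medians were 0.209 to 0.504 FPKM in Bmal1-/- against 0.0894 to 0.293 in WT. The libraries are stranded but the strand setting used in the authors' counting is not stated in any source at hand, so reads of the pair may be shared.

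**Figure D1:**
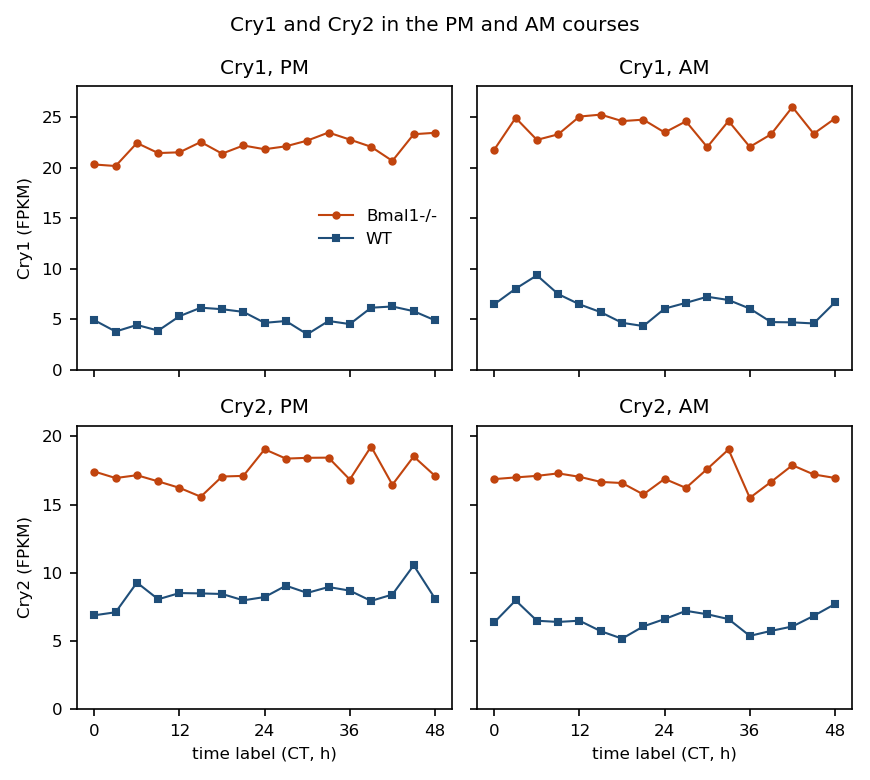
FPKM of Cry1 (top) and Cry2 (bottom) against the time label (CT, in h) in the PM (left) and AM (right) courses, 1 point per library, with Bmal1-/- as circles and WT as squares. Bmal1-/- lies above WT at 17 of 17 time points in each panel, and Cry1 waves in WT in both courses.

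Ordered by course mean, Cry1 was highest in Bmal1-/- at 27 °C (39.2 ± 3.77 FPKM, SD over the libraries of the course), then in Bmal1-/- at 32 °C (28.7 ± 2.23), in AM (23.9 ± 1.27), in PM (22.03 ± 1.02) and at 37 °C (20.1 ± 0.726). The WT courses followed in the same order, at 13.1 ± 1.43 FPKM at 27 °C, 8.60 ± 0.760 at 32 °C, 6.22 ± 1.38 in AM, 5.02 ± 0.872 in PM and 4.63 ± 0.923 at 37 °C. Ranges of neighbours in this order overlapped, except between Bmal1-/- at 37 °C and WT at 27 °C and between WT at 27 °C and at 32 °C. For Cry2 the order was PM (17.5 ± 1.05), AM (16.96 ± 0.803), 32 °C, 37 °C and 27 °C in Bmal1-/-, and PM (8.42 ± 0.823), 27 °C, AM (6.45 ± 0.754), 32 °C and 37 °C in WT. Its neighbours overlapped throughout except at the step between the genotypes.

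Markers of other cell types moved with genotype in part, and those of macrophages also with temperature. The summed level of 4 melanocyte markers was 1.20 to 1.77 FPKM per course in Bmal1-/- against 6.35 to 16.7 in WT. Mlana averaged 0.200 FPKM in Bmal1-/- and 8.64 in WT, and Pmel went the other way, at 1.26 in Bmal1-/- and 0.687 in WT, while Dct and Tyr were near 0 in both. The 5 keratinocyte markers summed to 0.672 to 1.37 FPKM in Bmal1-/- and 1.39 to 5.59 in WT. The 4 endothelial markers summed to 1.60 to 2.28 in Bmal1-/- and 1.21 to 4.93 in WT, and the 5 macrophage markers to 2.04 to 28.2 in Bmal1-/- and 5.53 to 32.3 in WT. The macrophage sums were highest at 27 °C, at 28.2 in Bmal1-/- and 32.3 in WT, against 2.04 and 7.87 at 37 °C. In Bmal1-/- and WT, Cd68 averaged 6.93 and 9.995 FPKM, Lyz2 0.634 and 3.39, and Csf1r 0.845 and 0.288. Adgre1 and Ptprc were near 0 in both. The part of all these markers in the cryptochrome differences was not tested. In bulk cultures fewer cells of a type and less RNA per cell cannot be told apart.

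The rhythm comparison asked whether each transcript followed a 24 h cosine and whether the genotypes differed in it. Cry1 was rhythmic in WT in PM, AM and at 37 °C, with peak-to-trough folds of 1.45, 1.58 and 1.52, and its rhythm differed from that of Bmal1-/- cells in all 3. In Bmal1-/- no course of either gene was called. An amplitude here is the height of the fitted cosine above its mid-line in log2 units, with its SE.

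In PM the Cry1 amplitude was 0.03 ± 0.03 in Bmal1-/- (adjusted p = 0.870), against 0.27 ± 0.03 in WT with a peak at CT17.7 ± 0.427 h (adjusted p = 1.09e-06). In AM it was 0.04 ± 0.03 in Bmal1-/- (0.808), against 0.33 ± 0.03 in WT with a peak at CT6.16 ± 0.346 h (2.10e-09). At 37 °C it was 0.02 ± 0.03 in Bmal1-/- (0.865), against 0.30 ± 0.03 in WT with a peak at CT9.61 ± 0.338 h (6.20e-18). The WT course at 37 °C shows the wave on both days. Between CT0 and CT22 Cry1 ran from 2.91 FPKM at CT22 to 6.14 at CT10, and between CT24 and CT46 from 3.08 at CT24 to 5.76 at CT34. Over the same days in Bmal1-/- the highest library was 1.16 and 1.10 times the lowest. In these courses 3.02%, 3.4% and 8.46% of genes were called rhythmic in Bmal1-/-, and 5.61%, 3.85% and 4.92% in WT.

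The difference in Cry1 rhythm between the genotypes passed its own test in PM (adjusted p = 0.00178), AM (7.00e-06) and at 37 °C (2.40e-09). The amplitude was lower in Bmal1-/- by 0.23 in PM (95% interval of Bmal1-/- minus WT -0.33 to -0.14), by 0.29 in AM (-0.39 to -0.20) and by 0.28 at 37 °C (-0.36 to -0.21). Such a difference was called for 0.0751% of genes in PM, 0.113% in AM and 6.1% at 37 °C. The PM call was lost with a 26 h cosine (adjusted p = 0.0584), and the 37 °C call was lost when the 2 CT14 libraries at 27 °C were included in the fit (0.0645), with the same fitted difference of 0.30 and a larger shared spread.

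In the cooler courses the Cry1 wave in WT did not pass. At 27 °C the amplitude was 0.08 ± 0.03 in Bmal1-/- (adjusted p = 0.115), against 0.04 ± 0.03 in WT (0.777). At 32 °C it was 0.02 ± 0.03 in Bmal1-/- (0.991), against 0.10 ± 0.03 in WT with a peak at CT2.34 (0.114). The genotypes were not called different in rhythm at 27 °C (adjusted p = 0.206, amplitude difference 0.04, interval -0.04 to 0.12) or 32 °C (adjusted p = 1, amplitude difference -0.09, interval -0.16 to -0.01), in comparisons where 1.5% and 0.023% of genes were. Rhythm was called for 9.85% and 2.06% of genes in Bmal1-/- and 2.15% and 0.253% in WT at 27 and 32 °C. The Bmal1-/- course at 27 °C was called without a linear time term (amplitude 0.13, adjusted p = 0.00998) and with a 26 h cosine (0.09, adjusted p = 0.0441). That course climbed over its first hours, from 31.0 FPKM at CT2 to 43.1 at CT16.

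Cry2 was rhythmic in 1 course, WT AM, with an amplitude of 0.17 ± 0.03 and a peak at CT3.47 ± 0.703 h (adjusted p = 0.00352), against 0.03 ± 0.03 in Bmal1-/- AM (0.846). Its WT libraries there ran from 5.17 FPKM at CT18 to 7.97 at CT3, and on the second day from 5.37 at CT36 to 7.21 at CT27. The peak-to-trough fold was 1.27, and the peak of Cry2 minus that of Cry1 was -2.69 h in that course. In the other courses amplitudes were 0.02 to 0.05 in Bmal1-/- (adjusted p from 0.648 to 0.985) and 0.02 to 0.07 in WT (0.221 to 0.962). The genotype difference in Cry2 rhythm was not called in any course (adjusted p from 0.243 to 1). In AM the amplitude difference was -0.14 with an interval of -0.23 to -0.04, which leaves out 0, while the test of cosine and sine adjusted over all genes gave 0.243. At 37 °C the interval was -0.11 to 0.04. The Cry2 amplitude in WT was only 0.07 there, so it could not fall by as much as that of Cry1.

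**Figure D2:**
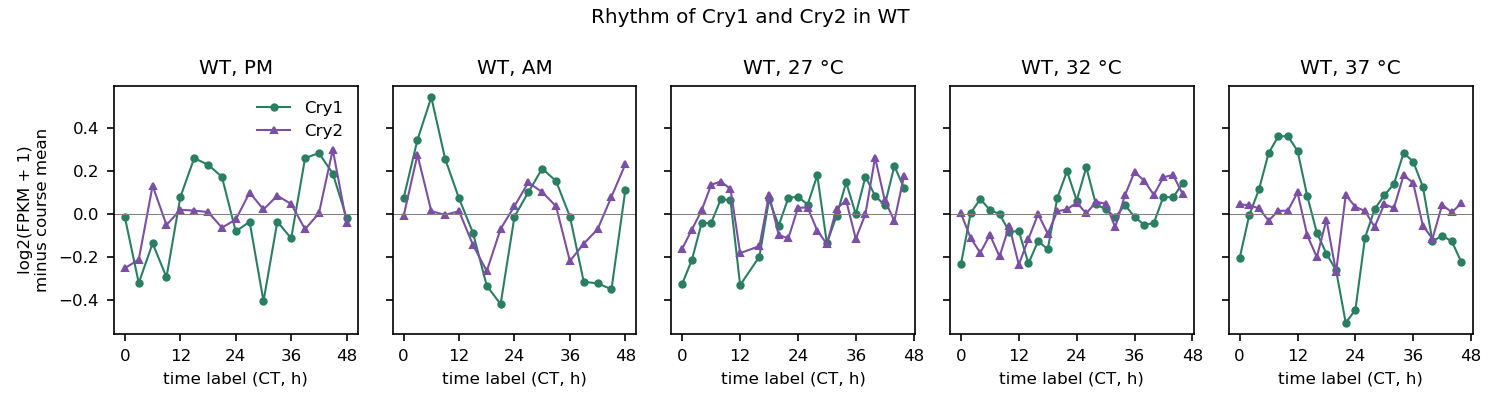
Change of Cry1 (circles) and Cry2 (triangles) over time in the 5 WT courses, as log2(FPKM + 1) minus the course mean against the time label (CT, in h). Cry1 waves in PM, AM and at 37 °C, with fitted amplitudes of 0.27, 0.33 and 0.30, and Cry2 was called rhythmic in AM.

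**Figure D3:**
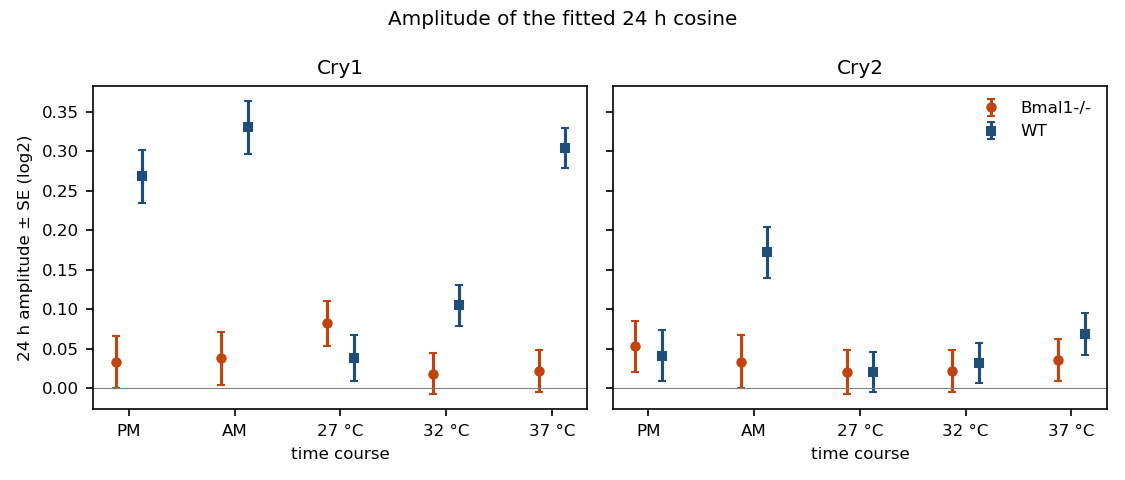
Amplitude of the fitted 24 h cosine with SE (log2, from mid-level to peak) for Cry1 (left) and Cry2 (right) in each course, with Bmal1-/- as circles and WT as squares. Cry1 amplitudes reach 0.27 to 0.33 in WT in PM, AM and at 37 °C and are 0.02 to 0.08 in Bmal1-/-.

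The PM and AM courses ran in opposite phase by time label in WT. Cry1 peaked at CT17.7 in PM and CT6.16 in AM, and the difference in cosine and sine had a size of 0.60 ± 0.05 (SE; adjusted p = 2.37e-13), in a comparison where 2.97% of genes were called. In Bmal1-/- the same difference was 0.07 (adjusted p = 0.709, with 0.368% of genes called). For Cry2 it was 0.04 in Bmal1-/- (0.838) and 0.18 in WT (0.0409). The WT value for Cry2 lost its call without the shallow AM library at CT36 (0.16, adjusted p = 0.0728), and also with no filter on low values, without the linear time term and with a 22 h or 26 h cosine (adjusted p from 0.0637 to 0.0948).

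When the period was left free between 16 and 34 h, the best cosine for Cry1 in WT had a period of 24.25 h in PM (interval 22.5 to 26.25 h), 23.25 h in AM (22 to 24.75) and 25.75 h at 37 °C (24.5 to 27). It accounted for 78.2%, 84.9% and 88.5% of the variance left after a linear trend. At 32 °C in WT the best period was 21.25 h (18.5 to 24.25), with 55.5% of the variance. For Cry2 in WT AM it was 22.25 h (20.5 to 24.25). The period of Cry1 in WT at 27 °C, and of Cry2 in WT in the 4 courses other than AM, was not resolved, since the interval reached an end of the scanned range. In Bmal1-/- it likewise did in every course but 1, Cry1 in PM, where it ran from 17 to 25 h. These are descriptions of 2 cycles at most, with no test.

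Against other clock genes that were called rhythmic in WT, Cry1 peaked between Per2 and Nfil3 each time. In PM the order of peaks included Nr1d1 (a REV-ERB repressor) at CT7.87, Dbp (a D-box activator) at CT11.6, Per3 at CT13.2, Per2 at CT14.9, Cry1 at CT17.7, Nfil3 (a D-box repressor) at CT21.3 and Arntl at CT0.51. In AM it included Nr1d1 at CT20.3, Dbp at CT23.7, Per3 at CT1.92, Per2 at CT3.48, Cry1 at CT6.16, Nfil3 at CT9.61 and Arntl at CT12.0. At 37 °C it included Nr1d1 at CT23.1, Dbp at CT2.14, Per3 at CT4.30, Per2 at CT4.67, Cry1 at CT9.61, Nfil3 at CT12.2 and Arntl at CT14.6. Cry1 thus followed Nr1d1 by 9.80 h in PM, 9.90 h in AM and 10.49 h at 37 °C, and Per2 by 2.79, 2.68 and 4.95 h. The peak of Cry1 minus that of Arntl was -6.85, -5.85 and -5.02 h.

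The temperature comparison asked how cryptochrome transcripts depend on culture temperature. Cry1 was higher in the cooler courses of both genotypes, and the step was larger in WT on the log2 scale. Cry2 passed no temperature comparison. The median of all genes was itself 0.21 log2 units higher at 27 °C than at 37 °C in each genotype, and 0.13 higher at 32 °C, so changes are read against that shift. Summed fibroblast markers were lower at 27 °C (9910 FPKM in Bmal1-/- and 7576 in WT) than at 37 °C (15290 and 12470). The part of this in the temperature differences was not tested.

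Between 27 and 37 °C Cry1 differed by 0.93 ± 0.03 (SE) in Bmal1-/- (39.2 FPKM at 27 °C against 20.1 at 37 °C, adjusted p = 3.60e-66), just under 2-fold, and by 1.33 ± 0.03 in WT (13.1 against 4.63, adjusted p = 1.59e-83), where it rose. It was higher at 27 °C at 23 of 23 time points in each genotype, and the ranges did not overlap. Of all genes, 11.7% were called in Bmal1-/- and 13.6% in WT, and 31.4% and 35.2% had courses that did not overlap. With median-of-ratios scaling, which removes the shift of the median, the values were 0.70 in Bmal1-/- and 1.12 in WT. The interaction, the Bmal1-/- difference minus the WT difference, was -0.40 ± 0.04 (adjusted p = 9.79e-20) and did not reach 2-fold, a size called for 4.41% of genes.

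Between 32 and 37 °C Cry1 differed by 0.49 in Bmal1-/- (adjusted p = 1.81e-38) and 0.78 in WT (4.85e-58), both under 2-fold, and it was higher at 24 of 24 time points in each. The calls over all genes were 2.71% in Bmal1-/- and 3.29% in WT, and the interaction was -0.29 ± 0.04 (adjusted p = 3.19e-12, with 1.49% of genes called). Between 27 and 32 °C it differed by 0.44 in Bmal1-/- (adjusted p = 2.48e-33, with 3.33% of genes called) and 0.55 in WT (1.98e-42, with 4.37%), again under 2-fold. Cry1 was thus graded over the 3 temperatures in both genotypes. In the 32 °C libraries 1 gene held 18.8 to 34.2% of the summed FPKM, against at most 4.46% in any other library, and the part of this in the 32 °C values was not tested.

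Cry2 was not called in any temperature comparison, and its ranges overlapped in all of them. Between 27 and 37 °C it differed by -0.03 in Bmal1-/- (adjusted p = 0.275, interval -0.08 to 0.02) and by 0.14 in WT (2.83e-07), where the value is less than the shift of the median and was turned to -0.07 by median-of-ratios scaling. Between 32 and 37 °C it differed by 0.13 in Bmal1-/- (8.01e-07) and 0.09 in WT (0.000957), where it was -0.03 with that scaling. Between 27 and 32 °C the values were -0.16 in Bmal1-/- (4.96e-09) and 0.05 in WT (0.0515; -0.04 with that scaling). At 27 °C it was above 37 °C at 8 of 23 time points in Bmal1-/- and at 18 of 23 in WT. The interaction between 27 and 37 °C was -0.17 ± 0.04 (adjusted p = 1.51e-05), far from 2-fold, and that between 32 and 37 °C was 0.05 (0.266).

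**Figure D4:**
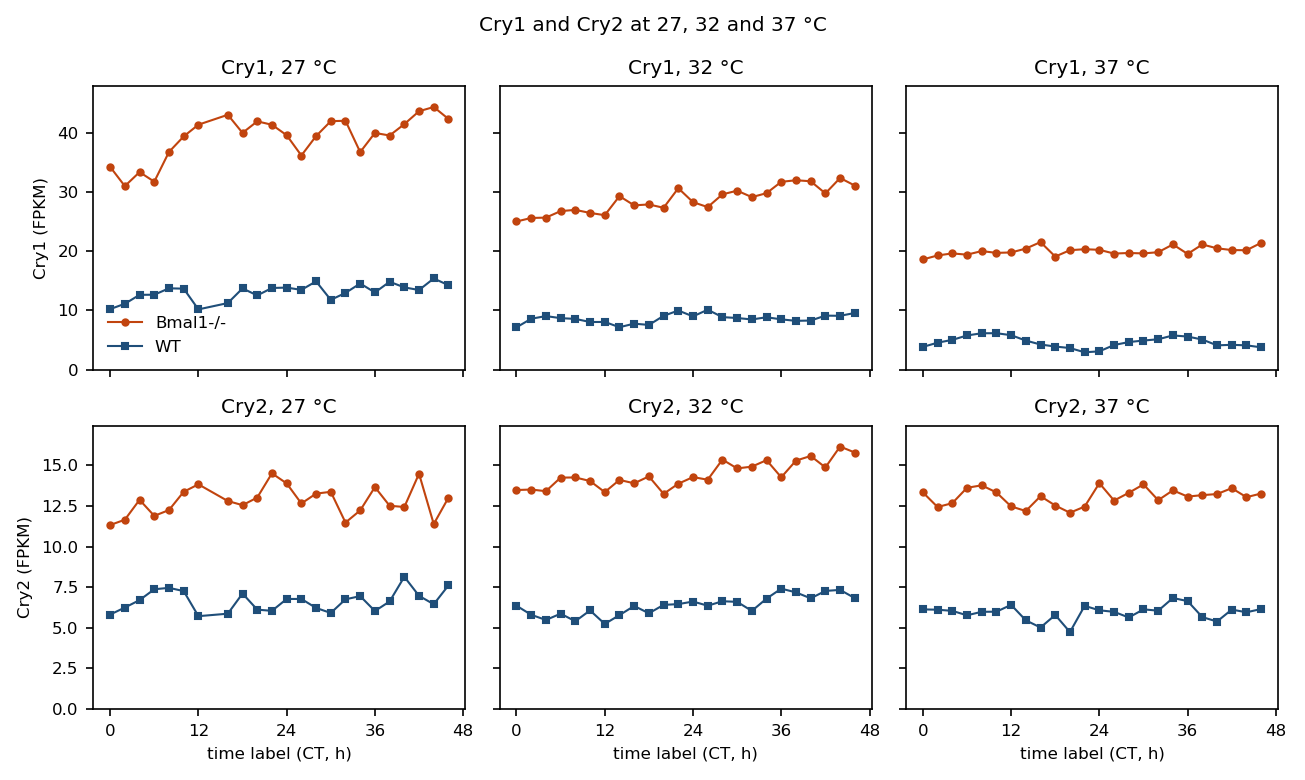
FPKM of Cry1 (top) and Cry2 (bottom) against the time label (CT, in h) at 27, 32 and 37 °C (left to right), 1 point per library, with Bmal1-/- as circles and WT as squares; CT14 at 27 °C is left out. Cry1 steps down with temperature in both genotypes, with course means of 39.2, 28.7 and 20.1 FPKM in Bmal1-/- and 13.1, 8.60 and 4.63 in WT, while Cry2 keeps near its level.

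PM and AM levels differed little. The log2 difference of Cry1, PM minus AM, was -0.11 in Bmal1-/- (adjusted p = 0.00116) and -0.25 in WT (2.30e-10), while Cry2 differed by 0.04 in Bmal1-/- (0.317; -0.05 with median-of-ratios scaling) and 0.35 in WT (9.17e-15), none of them 2-fold. In this comparison 1.16% of genes were called in Bmal1-/- and 2.38% in WT. Levels also drifted within courses. Cry1 climbed by 0.12 log2 units per 24 h at 27 °C and 0.16 at 32 °C in Bmal1-/- (adjusted p = 0.00489 and 0.000141), and by 0.18 and 0.12 in WT (6.99e-06 and 0.00347). Cry2 climbed by 0.12 in Bmal1-/- (0.00695) and 0.16 in WT (4.81e-05) at 32 °C, and by 0.11 in WT PM (0.0439). Drift was common: 23.2% of genes at 27 °C and 15.6% at 32 °C in Bmal1-/-, and 36.8% at 27 °C, 30.2% at 32 °C and 17.4% in PM in WT had a called trend. At 37 °C no trend of either gene was called (adjusted p from 0.294 to 0.545). With the CT14 libraries included, the Cry1 calls at 32 °C in Bmal1-/- and at 27 and 32 °C in WT, and the Cry2 call at 32 °C in Bmal1-/-, were lost.

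Since FPKM is per transcript length, levels of the 2 cryptochromes were set side by side. The length used for each gene is not stated, and reads of Cry2 may be shared with its antisense gene. Whether a ratio lies above or below 1 depends on both. Cry1 exceeded Cry2 in every Bmal1-/- library, while in WT the balance turned with temperature. The ratio of Cry1 to Cry2 averaged 1.27 ± 0.0825 in Bmal1-/- PM against 0.600 ± 0.110 in WT PM, and 1.41 ± 0.0912 in Bmal1-/- AM against 0.964 ± 0.184 in WT AM (SD, n = 17 each). At 27 °C it averaged 3.07 ± 0.304 in Bmal1-/- and 1.98 ± 0.201 in WT, at 32 °C 1.99 ± 0.0957 in Bmal1-/- and 1.36 ± 0.152 in WT, and at 37 °C 1.54 ± 0.0791 in Bmal1-/- and 0.782 ± 0.148 in WT. In WT, Cry1 was above Cry2 in 0 of 17 libraries in PM, 7 of 17 in AM, 23 of 23 at 27 °C, 24 of 24 at 32 °C and 2 of 24 at 37 °C.

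Paired by time label, the log2 ratio (with 1 FPKM added to each gene) was higher in Bmal1-/- by 0.98 in PM (17 of 17 time points, adjusted p = 5e-05), 0.54 in AM (16 of 17, 6e-05), 0.66 at 27 °C (23 of 23, 3.3e-05), 0.56 at 32 °C (24 of 24, 3.3e-05) and 0.90 at 37 °C (24 of 24, 3.3e-05). These are two-sided permutation tests with 100000 resamples, adjusted over the 5 courses, and the raw p of 2e-05 at the 3 temperatures is the smallest they can give. The ratio does not depend on scaling between libraries apart from the added 1 FPKM. Along the WT courses it swung with Cry1, between 0.458 at CT22 and 1.03 at CT8 at 37 °C, and between 0.668 at CT45 and 1.44 at CT6 in AM.

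**Figure D5:**
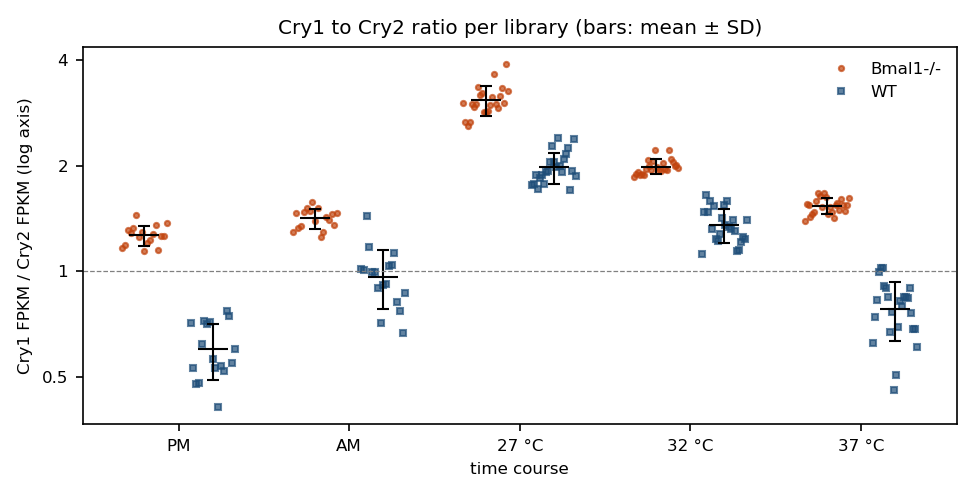
Ratio of Cry1 to Cry2 FPKM in each library (log axis), with Bmal1-/- as circles and WT as squares in each course, points in time order from left to right within a group, and bars for the mean ± SD. All Bmal1-/- libraries lie above 1 (dashed line), and WT lies around or below 1 in PM, AM and at 37 °C and above it at 27 and 32 °C.

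Of 37 other genes of the cryptochrome pathway in 6 lists, 34 were tested. Between genotypes 2 were called higher and 6 lower in PM, 3 and 6 in AM, 2 and 6 at 27 °C, 1 and 3 at 32 °C, and 3 and 5 at 37 °C. The list medians of the log2 difference were -0.08, 0.02, -0.05, 0.02 and 0.00, against medians of all genes between -0.02 and 0.02. Over all genes, 7.35% were called higher and 8.23% lower in PM, 6.86% and 7.78% in AM, 6.38% and 7.08% at 27 °C, 6.96% and 7.59% at 32 °C, and 6.22% and 7.69% at 37 °C. The list counts of higher calls are near these shares, and nothing is read from them.

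The values that follow are log2 differences, Bmal1-/- minus WT, in the order PM, AM, 27, 32 and 37 °C where 5 are given. Among the activators, Npas2, which can replace CLOCK as partner of BMAL1, rose in PM (1.14), AM (1.67) and at 27 °C (1.40). Arntl2, a BMAL1 paralog, rose at 37 °C (1.17), and Clock fell in PM (-1.13). Per3, of the PER family that joins the cryptochromes in the repressor complex, fell in all 5 courses (-2.05, -1.499, -1.93, -1.75 and -1.74). Per1 and Per2 were not called in any course. The median of the 3 PER genes was 0.15, 0.54, -0.71, 0.05 and 0.23, above 0 in all courses but that at 27 °C. Nr1d2 fell in all 5 (-3.07, -2.71, -1.94, -2.15 and -2.35), and Nr1d1 fell in PM (-1.87), AM (-1.34) and at 37 °C (-1.59). Of the D-box factors Hlf fell in all 5 (-3.61, -2.78, -3.56, -3.09 and -2.98), and Dbp at 27 °C (-1.37) and 37 °C (-1.25). Of the other repressors Ciart fell in AM (-1.11) and at 27 °C (-1.94), and Bhlhe41 at 27 °C (-1.67).

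The list of genes for cryptochrome turnover and modification had 17 of 18 members tested. In PM, AM and at 27, 32 and 37 °C, 2, 3, 1, 1 and 2 of the 17 were called. Over all genes 15.6%, 14.6%, 13.5%, 14.5% and 13.9% were called in that order, and nothing is read from the counts. Usp2, a deubiquitinase reported to stabilise CRY1 in mouse, rose in Bmal1-/- in all 5 courses (1.09, 1.26, 1.14, 1.38 and 1.19). Dtl, a substrate receptor of CUL4 ligases, fell in PM (-1.19) and AM (-1.31).

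Between 27 and 37 °C, 4 of the 34 rose in Bmal1-/- and 9 in WT, and 0 fell in either. Over all genes 7.64% were called higher and 4.04% lower in Bmal1-/-, and 8.38% and 5.21% in WT. With median-of-ratios scaling 3 rose in Bmal1-/-, and 6 rose and 1 fell in WT. Without that scaling the Bmal1-/- genes were Nr1d2 (1.35), Csnk1e (1.33), Nr1d1 (1.32) and Per1 (1.12), of which Per1 was not called with it (0.89). In WT they included Bhlhe41 (1.93), Ciart (1.88), Csnk1e (1.69), Bhlhe40 (1.33), Per1 (1.31), Tef (1.15), Per3 (1.09) and Hlf (1.03), beside the 1.33 of Cry1. Of these Tef (0.91), Per3 (0.87) and Hlf (0.80) were not called with that scaling, and Npas2 fell (-1.05). The list median was 0.34 in Bmal1-/- and 0.56 in WT, against 0.21 for all genes. The interaction was called and negative in 5 of the 34, where 1.67% of all genes were called lower and 2.74% higher: Bhlhe41 (-1.93), Ciart (-1.54), Per2 (-1.29), Bhlhe40 (-1.28) and Tef (-1.04). For rhythm, 2, 0, 2, 1 and 1 of the 34 were called in Bmal1-/- and 13, 10, 1, 5 and 10 in WT, in PM, AM and at 27, 32 and 37 °C. Over all genes the shares called in that order were 3.02%, 3.4%, 9.85%, 2.06% and 8.46% in Bmal1-/-, so the counts there are near the background, as is that at 27 °C in WT. In WT the shares were 5.61%, 3.85%, 2.15%, 0.253% and 4.92%.

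The genes most like each cryptochrome over time were ranked by Pearson's r of log2(FPKM + 1), after removal of the mean and linear trend of each course, over 105 libraries of a genotype. These libraries share course, depth and time label, and r is given as a description. In Bmal1-/- the 5 highest for Cry1 were Snx9 (0.70), Rab7 (0.65), Rapgef1 (0.65), Kif1c (0.63) and Fam168b (0.63), and for Cry2 Xdh (0.60), Mprip (0.58), Zswim8 (0.57), Dapk1 (0.56) and Atg2a (0.55). In WT they were Fam193b (0.58), Gpr162 (0.55), Nsmf (0.54), Tagap1 (0.54) and Tspyl2 (0.53) for Cry1, and Slc25a37 (0.52), Slc20a2 (0.47), Arhgef2 (0.47), Slc12a4 (0.47) and Cpsf1 (0.47) for Cry2. The cryptochromes themselves had an r of 0.24 in Bmal1-/- and 0.33 in WT.

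Nr1d1 had an r of 0.30 with Cry1 in Bmal1-/-, against -0.71 in WT, where it was the lowest of 13066 genes. Nr1d2, the other REV-ERB gene, had 0.35 in Bmal1-/- and -0.30 in WT. For Cry2 the closest pathway gene in WT was Per3, at 0.18 in Bmal1-/- and 0.47 in WT, where it ranked 6 of 13066. In Bmal1-/- the closest pathway gene to both cryptochromes was Ddb1, a CUL4 ligase adaptor, with 0.57 for Cry1 and 0.50 for Cry2.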

How the data were processed

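The authors deposited FPKM values per gene for 212 libraries, per the file headers, and no read counts. Per the labels' protocols, poly(A) RNA of mouse skin fibroblasts was made into stranded libraries and read from 1 end. Cells of each genotype and time were taken from 3 wells, with no word on pooling. Alignment and quantification tools listed in the submitters' processing notes are TopHat2 2.1.0 and Cuffdiff, with the GRCm38 build. No source at hand states the annotation, the counting options or how libraries were scaled, and Cuffdiff's scaling could move all genes of a library together.

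Values were analysed as log2(FPKM + 1) with limma 3.58.1 in R 4.3.3 (lmFit, eBayes with trend), for genes averaging 1 FPKM or more, in 1 fit of the 68 PM and AM libraries and 1 of 142 temperature libraries. Each course had an intercept, a linear time term and a 24 h cosine and sine. Adjusted p-values are Benjamini-Hochberg values over every gene in a fit. Levels were called at an adjusted p under 0.05 and 2-fold, and rhythms and trends at an adjusted p under 0.05. Ratios and permutation tests used scipy 1.17.1. The fits were run on simulated data with independent noise, to which level shifts and 24 h cosines of the fitted form were added. The simulated data held no drift and no links between libraries, so that run does not test the fits against these.

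To estimate depth, the FPKM step of a single read was found over 1357 genes with 1 transcript, where 94.8% of low values lay within 0.15 of a whole read. The step of each library was chosen to bring these values near whole reads, so that share does not check it. Counting errors from it are estimates and cover counting error only. They use the longest annotated transcript, 3026 bp for Cry1 and 3976 bp for Cry2. The length behind the deposited values is not stated, and a shorter one would give fewer reads and larger counting errors. Symbols and coordinates came from GENCODE M21 (GRCm38), which matched 47217 gene IDs, and promoters from RefSeq. The members, the pathway lists, the tests and the left-out CT14 libraries were chosen with earlier results of these data known. Named are Cry1 and Cry2, at most 3 called members per list and comparison with the largest change (1 pathway gene is counted but not reported by name here), the rhythmic clock genes whose peaks order them, and the 5 genes most like each cryptochrome (predicted genes and pseudogenes left out). Genes whose r is given beside those 5, and the antisense gene, were chosen after their values were seen. Alternatives were another pseudocount, scaling, low-value filter, period, no linear term, the time label as a replicate block, the CT14 libraries included and the shallow WT AM library at CT36 left out.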

Additional observations from a re-analysis of the deposited data

Results flagged for a closer look

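Effects that differed between genotypes or courses at an adjusted p under 0.05 in a test of the difference are listed here as values. No fold limit was set for this list, and none of the interactions reached 2-fold. For Cry1, the difference between 27 and 37 °C was smaller in Bmal1-/- than in WT by a log2 interaction of -0.404, and that between 32 and 37 °C by -0.289. Its 24 h rhythm differed between Bmal1-/- and WT by a fitted vector of 0.297 log2 units in PM, 0.368 in AM and 0.302 at 37 °C, and between PM and AM in WT by 0.597. For Cry2 the interaction between 27 and 37 °C was -0.168, and the rhythm difference between PM and AM in WT was 0.175. The interactions were of ordinary size. Between 27 and 37 °C, 26.9% of genes had one at least as large as that of Cry1, and 61.1% as that of Cry2. Between 32 and 37 °C the share was 24.3% for Cry1. For the rhythm difference between PM and AM in WT, the shares were 2.11% for Cry1 and 22.3% for Cry2. The share of genes with an interaction under this adjusted p alone was not counted. Some of these rhythm calls, that of Cry2 among them, were lost under alternatives given below.

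Among the 2 left-out libraries labelled CT14 at 27 °C, the one labelled WT had Cry1 at 36.6 FPKM and Cry2 at 11.5, above the highest values of the other WT libraries at 27 °C, which were 15.4 and 8.14.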

How the results depend on the processing

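For 89 results, 510 values under 9 alternatives were computed, of which 490 kept their direction and their side of the threshold, 12 lost a call, 3 gained one and 5 changed sign. All genotype calls of Cry1, and its rhythm calls in WT PM, AM and at 37 °C, held under each alternative run. Median-of-ratios scaling changed the sign of Cry2 between PM and AM in Bmal1-/- (-0.0542) and of its WT differences between 27 and 37 °C (-0.0713), 32 and 37 °C (-0.0322) and 27 and 32 °C (-0.0391). Including the CT14 libraries gave a Cry1 rhythm difference of 0.302 between genotypes at 37 °C that no longer passed (adjusted p = 0.0645), Cry1 trends of 0.160 in Bmal1-/- at 32 °C and, in WT, of 0.0445 at 27 °C and 0.118 at 32 °C, and Cry2 trends of 0.117 at 32 °C in Bmal1-/- and -0.0105 at 27 °C in WT, none of them called. A 26 h period gave a Cry1 genotype difference in rhythm of 0.274 in PM (adjusted p = 0.0584) and a called Cry1 amplitude of 0.0904 in Bmal1-/- at 27 °C, which was 0.126 and called without the linear term. A pseudocount of 0.1 FPKM gave a called Cry2 genotype difference of 1.04 in PM. The Cry2 rhythm difference between PM and AM in WT lost its call without WT AM CT36 (0.163), with no filter (0.175, 0.0683), without the linear term (0.186), at 22 h (0.160) and at 26 h (0.170), with adjusted p between 0.0637 and 0.0948. The Cry2 trend in WT PM lost its call with no filter (0.106, adjusted p = 0.0671). The causes were not tested.

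With the time label as a replicate block in place of the time terms, no call changed (Cry1 between genotypes at 37 °C, 1.92). The adjusted p of Cry1 between PM and AM in Bmal1-/- was then 0.138. Same-label libraries of the genotypes were weakly linked in their deviations from the course means. The correlation was over 0.1 in 0 of 17 pairs in PM, 2 of 17 in AM, 7 of 23 at 27 °C, 1 of 24 at 32 °C and 10 of 24 at 37 °C. At 27 °C the median was 0.076 and the highest 0.235, and at 37 °C these were 0.073 and 0.211. Estimated from depth, the highest counting error was 7.42% for Cry1 and 6.87% for Cry2, both in WT AM at CT36. Both rest on the estimated depth of that library and on the longest annotated transcript as length.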
